A study of Mus musculus with 64 samples.

Results

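Transcripts of genes known from the growing oocyte were measured in single eight-cell mouse embryos. The set held 10 genes, Gdf9, Bmp15, Zp1, Zp2, Zp3, H1foo, Npm2, Zar1, Mos and Btg4. They were chosen as oocyte genes by name, with earlier results of these data known. All 10 were found among the 23338 genes listed in the count tables. The libraries came from C57BL/6 mice (C57BL/6 J in the methods of the study) and fell into 4 stages: 12 eight-cell embryos, 4 ES cell lines grown in 2i medium, 24 fetal livers from late gestation and 24 adult livers from mice of 15 to 20 weeks. Males and females were equal in number at each stage. The embryos were conceived by natural mating, were flushed at 2.5 days post-coital and came from 4 litters, and the litter of each embryo is not given in the sources used here. Each library held the cells of 1 embryo freed of its zona pellucida with acidic Tyrode's solution. The 2i ES lines had been derived from eight-cell embryos, and 2i denotes inhibitors of the mitogen-activated protein kinase and glycogen synthase kinase-3 pathways. The sex of each embryo was assigned by the study from its own RNA, and that of the ES lines and fetuses by PCR on genomic DNA.

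A mammalian oocyte stores messenger RNA while it grows and stops transcription before it is ovulated. Meiotic maturation and fertilization start the removal of this store, largely through shortening of poly(A) tails by the CCR4-NOT deadenylase, while the genome of the embryo is switched on. The term maternal clearance describes that removal. The zona pellucida, the coat around the oocyte, is built from ZP1, ZP2 and ZP3. GDF9 and BMP15 are growth factors that the oocyte sends to the surrounding granulosa cells. H1FOO is the linker histone of the oocyte, and NPM2 is a nucleoplasmin that organizes chromatin after fertilization. ZAR1 binds stored messenger RNA, MOS is the kinase that holds the egg in metaphase of the second meiotic division, and BTG4 is the adaptor that brings CCR4-NOT to maternal transcripts. No oocytes or earlier embryos were analysed here, so the values are levels at the eight-cell stage and not a measured decline. RNA left from the oocyte and RNA transcribed by the embryo cannot be told apart in these values.

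The promoters of the members are shown because FIGLA, an oocyte transcription factor, acts on zona pellucida genes through an E-box. RefSeq promoters of GRCm38.p6 (250 bases before to 50 bases after the start) were matched for 4 members. Whether these starts are the ones used in the oocyte was not tested. The GENCODE M21 models place Btg4 at chr9:51060901-51119875 and Zar1 at chr5:72576806-72581254. The Btg4 window and most of the Zar1 window thus lie inside the annotated gene. The Zp3 window lies at chr5:135979855-135980154 on the plus strand, the Btg4 window at chr9:51115751-51116050 on the plus strand, the Zar1 window at chr5:72581035-72581334 on the minus strand and the Bmp15 window at chrX:6320675-6320974 on the minus strand. Each sequence is written 5′ to 3′ along the gene, and capitals mark every E-box, CANNTG.
Zp3: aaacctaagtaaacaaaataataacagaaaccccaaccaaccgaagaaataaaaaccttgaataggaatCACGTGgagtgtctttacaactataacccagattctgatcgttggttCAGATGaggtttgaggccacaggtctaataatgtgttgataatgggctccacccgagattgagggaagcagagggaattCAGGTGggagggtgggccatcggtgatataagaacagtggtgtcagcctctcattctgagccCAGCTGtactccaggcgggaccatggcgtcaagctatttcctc
Btg4: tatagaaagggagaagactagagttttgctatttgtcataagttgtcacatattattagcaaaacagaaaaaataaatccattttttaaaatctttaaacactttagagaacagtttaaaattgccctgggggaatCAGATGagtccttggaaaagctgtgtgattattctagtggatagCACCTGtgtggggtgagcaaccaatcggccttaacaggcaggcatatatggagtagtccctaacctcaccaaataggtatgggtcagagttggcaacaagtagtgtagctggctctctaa
Zar1: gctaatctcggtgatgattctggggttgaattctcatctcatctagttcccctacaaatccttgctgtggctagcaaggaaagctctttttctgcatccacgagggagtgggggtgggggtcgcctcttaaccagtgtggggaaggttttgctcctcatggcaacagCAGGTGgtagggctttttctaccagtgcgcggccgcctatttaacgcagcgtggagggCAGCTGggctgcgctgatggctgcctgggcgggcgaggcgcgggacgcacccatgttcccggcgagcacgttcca
Bmp15: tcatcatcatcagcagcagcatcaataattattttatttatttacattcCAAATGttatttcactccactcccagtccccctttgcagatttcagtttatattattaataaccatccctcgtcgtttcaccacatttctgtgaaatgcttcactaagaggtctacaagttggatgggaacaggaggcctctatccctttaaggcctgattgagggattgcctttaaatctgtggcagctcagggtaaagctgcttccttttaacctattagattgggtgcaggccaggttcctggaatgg
Zp3 held 4 E-boxes, whose first bases lay at -181, -134, -55 and 8 relative to the start. Btg4 and Zar1 held 2 each, at -114 and -70 and at -83 and -25, and Bmp15 held 1 at -201. The E-box pattern reads the same on both strands, and both strands were searched for every motif. The 4 windows were no exception in holding an E-box, since 72.3% of all 32817 RefSeq promoters of this length held at least 1. The form CAGGTG, which overlaps the general E-box, was found in Zp3, Zar1 and, on the other strand, Btg4, against 20.2% of all promoters. The letters TATAA began at -160 and -29 in Zp3 and were on the other strand of Bmp15 at -154, and 24.9% of all promoters held them somewhere. The letters TAATTG, bound by the oocyte factor NOBOX, were in none of the 4 windows and in 8.00% of all promoters.

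Depth set how far zeros can be read. Reads assigned to genes numbered 4659656 to 7725432 in the 12 embryos, 9857929 to 10386931 in the 4 ES lines, 5145371 to 8499603 in the fetal livers and 1567583 to 4757610 in the adult livers. Levels are given in CPM, reads of a gene per 1e6 reads on genes in the library. A gene with no read can have a level of up to 3 reads, which was 0.388 to 0.644 CPM in an embryo and, over all libraries of a stage together, 0.0740 CPM for ES lines, 0.0185 for fetal livers and 0.0453 for adult livers. Such limits and the intervals below cover counting error only. The embryo libraries were amplified by PCR from single embryos while the other stages were made from total RNA with a stranded kit, so stage and library protocol cannot be told apart. Of 14 eight-cell and pluripotency markers, 10 had reads in every embryo, among them Pou5f1 at 318 CPM in embryos and 868 in ES cells. Sox2 had no read in 9 of the 12 embryos (mean 0.934 CPM, against 402 in ES cells), and Krt18 and Krt8 were at 44.2 and 26.2 CPM in embryos, below their levels of 139 to 279 CPM in the livers. Summed liver markers lay between 43549 and 69591 CPM in the livers and at no more than 67.5 CPM in any embryo. Apoa1 was the highest liver marker in embryos, with a mean of 26.2 CPM, a maximum of 67.0 CPM and no read in 1 embryo. It was at 0.0735 CPM in ES cells. The globin genes among the liver markers, Hbb-b1 and Hba-a1, were at 0.0175 and 0.00721 CPM in fetal liver. Of 14 markers of cumulus cells, granulosa and oviduct, 12 had no read in any embryo. The exceptions were Amhr2, at 32.2 to 79.2 CPM in every embryo, and Ovgp1, with no read in 6 embryos and a mean of 0.483 CPM. The part of such cells in the members' levels was not tested beyond these values.

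All 10 oocyte transcripts had reads in at least 1 eight-cell embryo, at mean levels between 0.430 and 56.5 CPM. Only Zp3, Gdf9 and H1foo had reads in every embryo. Among the zona pellucida genes, Zp3 ranged from 189 reads in male embryo 2 to 464 in male embryo 1, with a median of 332, and had a mean of 56.5 CPM ± 19.4 (SD, n = 12). Zp2 ranged from 0 to 230 reads with a median of 37.5 (8.90 CPM ± 8.91), and Zp1 from 0 to 86 reads with a median of 46.5 (6.49 CPM ± 4.56). Zp3, which has the shortest exon model of the 3, had the most reads of them in all 12 embryos. Male embryo 6 had 269 reads of Zp3 but none of Zp1 or Zp2.

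Of the growth factor pair, Gdf9 was read in every embryo and Bmp15 was not. Gdf9 ranged from 81 reads in male embryo 3 to 297 in male embryo 5, with a median of 184.5 and a mean of 31.7 CPM ± 11.5. Bmp15 had no read in 4 embryos (male embryos 3, 5 and 6 and female embryo 10), a median of 29.0 reads, a highest value of 76 reads and a mean of 4.59 CPM ± 4.22. Male embryo 5 held the highest Gdf9 read count of all embryos together with no Bmp15.

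The chromatin genes H1foo and Npm2 differed in spread. H1foo ranged from 4 reads in male embryo 1 to 132 in female embryo 9, with a median of 47.0 (8.74 CPM ± 5.62). Npm2 ranged from 0 in female embryo 10 to 189 in male embryo 1, with a median of 41.0 (9.22 CPM ± 9.93). Male embryo 1 was thus the lowest of the 12 for H1foo and the highest for Npm2. The annotated exons of Npm2 overlap those of Xpo7 on the same strand by 39 bases, and reads there cannot be assigned with certainty.

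The RNA regulators and the kinase gene Mos were missing from some embryos. Btg4 had no read in male embryos 3 and 5, a median of 46.0 reads and a highest value of 95 in female embryo 12 (6.89 CPM ± 5.02). Zar1 had no read in 4 embryos and at most 28 (1.37 CPM ± 1.38). Mos was near the limit of these libraries: it had no read in 9 embryos, 1 in male embryo 6, 7 in female embryo 8 and 21 in female embryo 12.

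**Figure D1:**
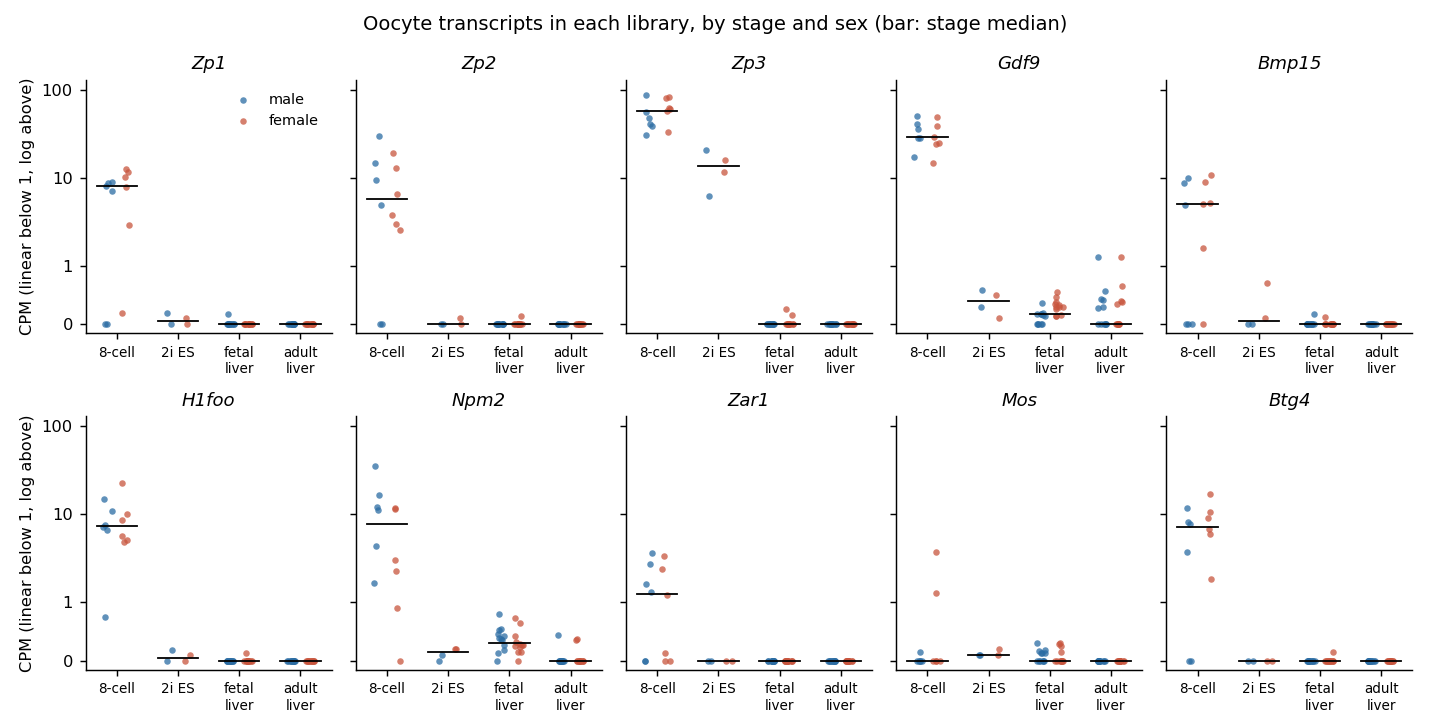
Level of each oocyte transcript in CPM (vertical axis, linear below 1 and logarithmic above) in every library of the 4 stages (horizontal axis), with males in blue, females in red and a bar at the stage median. Only Zp3 sat above 1 CPM in all 4 ES lines, from 6.22 to 20.9 CPM, and the members were at or near 0 in the livers.

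Levels of different genes were compared per length of exon (GENCODE M21 models). The embryo libraries were primed on poly(A) tails, and whether their reads scale with exon length was not tested. On that scale Zp3 led with 42.7 CPM per kb ± 14.7 (SD, n = 12), above Gdf9 in 12 of 12 embryos. Gdf9 followed at 15.6 ± 5.64 and was above the next gene, Npm2, in 10 of 12. Below Gdf9 came Npm2 at 8.90, H1foo at 7.28, Zp2 at 3.35, Zp1 at 3.28, Btg4 at 2.70, Bmp15 at 1.5, Zar1 at 0.956 and Mos at 0.297 CPM per kb. Only the step from Zp3 to Gdf9 was larger than the SD of either gene, and every other pair of neighbours in this order differed by less than the larger of their SDs. Bmp15 lies on the X chromosome (chrX:6314107-6320721) and Zp3 and Zar1 lie on chromosome 5, the former at chr5:135980099-135988624. Gdf9 lies at chr11:53431023-53437904, all in GRCm38.

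The embryos differed in which oocyte transcripts were read. Male embryos 3 and 5 lacked reads of 5 of the 10 members, female embryo 10 of 4 and male embryo 6 of 3, while female embryo 12 had reads of all 10 and the remaining 7 embryos lacked 1 each. Male embryo 3 lacked Bmp15, Zp1, Zar1, Mos and Btg4, and male embryo 5 lacked Bmp15, Zp2, Zar1, Mos and Btg4. Male embryo 3 was also the shallowest library and detected the fewest genes (9407, against up to 11126). Of the genes with a mean of 5 to 20 CPM, 15.99% had no read in male embryo 3, the highest share of the 12. The number of missing members did not follow that share elsewhere. Female embryo 12, with all 10 members, had the next highest share, 13.2%, and male embryo 5, with 5 members missing, had 5.62%.

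**Figure D2:**
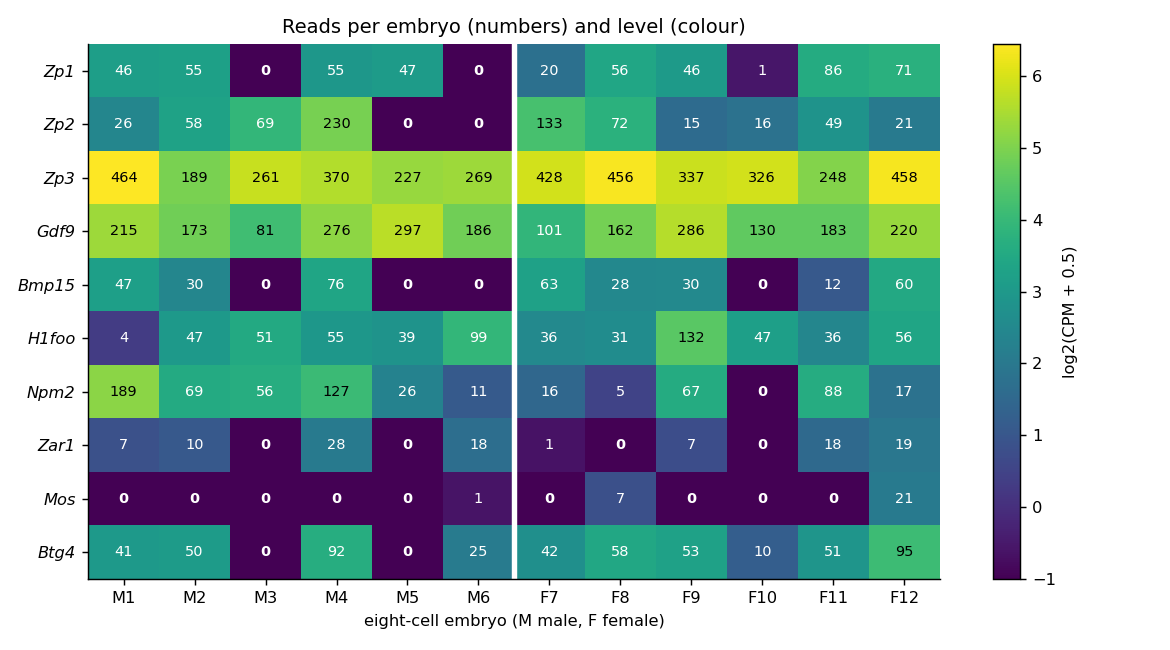
Reads of each oocyte transcript (rows) in each of the 12 eight-cell embryos (columns, M male and F female), printed in the cells, with colour giving log2(CPM + 0.5). Zp3, Gdf9 and H1foo were read in every embryo, and the zeros gathered in male embryos 3, 5 and 6 and female embryo 10.

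Summed over the 10 members, the level ranged from 91.4 CPM in male embryo 6 (95% Wilson counting interval 84.4 to 99.0) to 195 CPM in male embryo 1 (183 to 207). That was a 2.13-fold range, wider than counting error. The sum was 131 CPM ± 41.1 in the 6 males and 139 ± 36.1 in the 6 females, and the sexes overlapped. Zp3 and Gdf9 carried most of it, so the sum says little about the scarcer members.

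A zero in a gene of this abundance was common in these libraries. Among all genes with a mean of 5 to 10 CPM, where Zp1, Zp2, H1foo, Npm2 and Btg4 fell, 70.0% of 1238 genes had no read in at least 1 embryo. At 1 to 5 CPM, the range of Bmp15 and Zar1, the share was 92.7% of 2588 genes. At 20 to 50 CPM, the range of Gdf9, it was 3.30% of 1969, and at 50 to 100 CPM, the range of Zp3, 0.131% of 1528. Of the 5 members between 5 and 10 CPM, H1foo alone had no embryo at 0.

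The spread between embryos was above counting error for all 10 members. The coefficient of variation (CV, SD over mean) was 0.344 for Zp3 and 0.361 for Gdf9, against 0.0545 and 0.0721 from counting alone. It was 0.643 for H1foo, 0.702 for Zp1, 0.728 for Btg4, 0.920 for Bmp15, 1.00 for Zp2, 1.01 for Zar1 and 1.08 for Npm2, where counting gave between 0.132 and 0.333. For Mos the CV was 2.57 and the counting part 0.643.

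Low genes spread more in these libraries whatever they encode, so each member was set beside genes of its own abundance. The biological coefficient of variation (BCV), edgeR's estimate of spread beyond counting, had a trend over abundance. The BCV of each gene is drawn towards that trend by the fit, so ratios near 1 are in part built in. The ratio of a member's own BCV to the trend was 0.821 for H1foo, 0.841 for Gdf9, 0.873 for Zp3, 1.00 for Btg4, 1.02 for Npm2, 1.07 for Zp1, 1.15 for Zp2 and 1.20 for Bmp15. These ratios stood at percentiles from 14.2 for H1foo to 89.1 for Bmp15 among the 9087 genes tested. Within the spread usual for their abundance, the 8 members that could be fitted therefore lay on both sides of the trend.

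**Figure D3:**
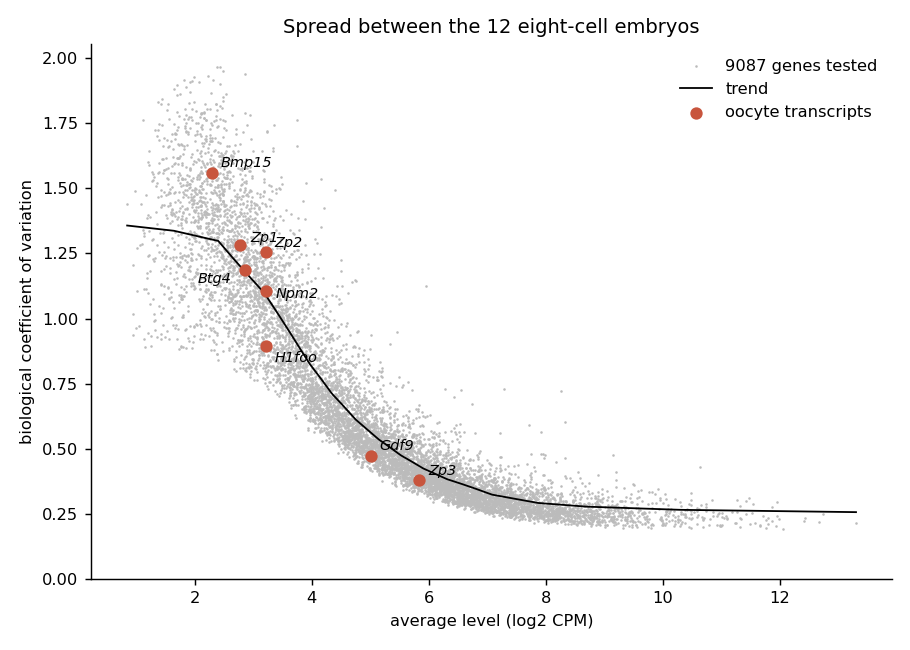
Biological coefficient of variation between the 12 eight-cell embryos (vertical axis) against average level in log2 CPM (horizontal axis) for 9087 genes in grey, the trend as a line and the 8 fitted oocyte transcripts in red. The members lay on both sides of the trend, towards which the fit draws each gene, with H1foo at 0.821 and Bmp15 at 1.20 times its value.

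Eight-cell embryos were next compared with 2i ES cells, which descend from such embryos. The comparison asks which oocyte transcripts of eight-cell embryos are also carried by pluripotent cells derived from other such embryos. Zp3 had 217, 64, 157 and 114 reads in ES lines 1 to 4 (13.6 CPM ± 6.22, n = 4), and all 4 values lay below the lowest embryo on the CPM scale (30.6). Gdf9 had 6, 3, 1 and 5 reads and Bmp15 0, 0, 1 and 7. Zar1 and Btg4 had no read in any line, and no other member had more than 2 reads in a line.

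Calls needed an adjusted p under 0.05 and a log2 difference above 1. In the fit without an expression filter, which held all 10 members, 9 were called higher in embryos, Mos being the exception, against 14.3% of 18255 genes, and DESeq2 called the same 9. Leaving out each of the 16 libraries in turn from that fit, an alternative chosen after seeing the data, left 8 or 9 called, the changing member being Bmp15. With the filter 9 members were kept, most of them only through the embryos, so their higher level there was set in part by the filter. With it, 21.5% of 12478 genes were called higher. The sizes below are from the fit without the filter unless stated. Zp3 was higher by 2.34 on the log2 scale (SE 0.36, adjusted p = 5.80e-05, edgeR's quasi-likelihood test) and Gdf9 by 6.66 (SE 0.58, adjusted p = 1.04e-07). Npm2, with 5 reads over the 4 lines, was higher by 5.96 (SE 1.52, adjusted p = 0.00378). The median log2 difference of all genes tested was -1.06 without the filter. With the filter it was -0.44, or -0.79 with the size factors of DESeq2, and the members' differences are to be read beside that shift.

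Where ES cells had few or no reads, the ratio of pooled levels gives the size. Btg4 was at least 95.4-fold higher and Zar1 at least 19.9-fold higher in embryos, each set against a floor of 3 reads over the 4 lines. For H1foo the ratio was 117 (exact 95% counting interval 39.8 to 568), for Zp1 89.1 (30.3 to 434) and for Zp2 381 (68.2 to 15089). These ratios were not themselves tested. In edgeR's quasi-likelihood test without the filter, the adjusted p was 0.00163 for Btg4 and 0.0140 for Zar1. It was 0.000179 for H1foo, 0.00676 for Zp1 and 0.00250 for Zp2. Bmp15 was the weakest call, with a log2 difference of 5.06 (SE 2.04, adjusted p = 0.0470) without the filter and 5.13 (SE 2.04, adjusted p = 0.0393) with it. With the filter its adjusted p rose above 0.05 when any of 5 libraries was left out: female embryo 7 (0.0506), female embryo 12 (0.0528), ES line 1 (0.102), ES line 2 (0.103) or ES line 3 (0.0939). Without the filter it did so for 11 of the 16 libraries. Mos had 29 reads in the 12 embryos and 5 in the 4 lines, a ratio of 3.21 with a counting interval of 1.23 to 10.6, and 21 of those 29 reads came from female embryo 12. Without that embryo the ratio was 0.959. Without the filter its log2 difference was 0.53 (SE 2.30, adjusted p = 0.853).

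The livers were somatic tissue. In adult liver, 8 of the 10 members had no read in any of the 24 libraries. Gdf9 had 16 reads over the 24 and Npm2 had 3. In fetal liver Npm2 had 56 reads, Gdf9 35, Mos 14, Zp3 3, Bmp15 2 and each of Zp1, Zp2, H1foo and Btg4 1, while Zar1 had none. None of these exceeded 6 reads in a single liver.

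Only Gdf9 and Zp3 passed the filter in the liver comparisons, since the other members lacked or had few reads in some embryos. They passed through the embryos alone, so their higher level was set by the filter and the following values give its size only. Of all genes, 22.7% of 13288 were called higher than in fetal liver and 27.7% of 11500 than in adult liver. Against fetal liver Gdf9 was higher by 7.21 on the log2 scale (SE 0.27) and against adult liver by 6.46 (SE 0.35). Zp3, with 3 reads in 24 fetal livers, had a pooled ratio of 2977 (1018 to 14444), and it was at least 1217-fold higher than in adult liver. The median log2 difference of all genes tested was -1.15 for fetal and -0.80 for adult liver.

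Without the filter all 10 members were called higher than in fetal liver (22.6% of 19614 genes) and than in adult liver (27.8% of 18336 genes). DESeq2 called 9 in each, Mos being lost (log2 1.33, adjusted p = 0.286 against fetal and log2 1.04, adjusted p = 0.763 against adult liver). The edgeR call of Mos against fetal liver was at an adjusted p of 0.0459 and rose to 0.0527 without male embryo 6, 0.0800 without female embryo 8 and 0.628 without female embryo 12. Btg4 was at least 156-fold, Zp2 at least 208-fold, H1foo at least 191-fold, Zp1 at least 146-fold, Bmp15 at least 104-fold, Zar1 at least 32.6-fold and Mos at least 8.75-fold above adult liver. The bound for Mos fell to 2.62-fold without female embryo 12, which left 8 reads, and no ratio of another member moved by over 1.5 times when an embryo was left out. Npm2 had the smallest excess over fetal liver among the members with more than 100 reads in embryos, 26.5-fold (20.2 to 35.5). In whole tissue, fewer cells of a type and less RNA per cell cannot be told apart. The 3 stage comparisons share the same 12 embryos and are not independent of each other.

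Sex was compared within the eight-cell stage, as the study did, to see whether male and female embryos held different amounts of oocyte transcripts. Mean levels of Zp3 were 50.1 CPM ± 20.05 in the 6 males and 62.9 ± 18.2 in the 6 females, those of Gdf9 were 33.3 ± 11.5 and 30.1 ± 12.3, and those of Npm2 were 13.5 ± 12.01 and 4.92 ± 5.31. The sexes overlapped for every one of these. None of the 8 members tested was called by the thresholds of 0.1 on the adjusted p and 0.5 on the absolute log2 ratio, where 0.264% of all genes were (24 of 9087), and none of the 8 reached an unadjusted p under 0.05. DESeq2, which tested all 10, called none either, also with 0 at an unadjusted p under 0.05.

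The log2 (male/female) of Gdf9 was 0.07 (SE 0.37) and that of Zp3 -0.40 (SE 0.30). The scarcer members had larger errors: 1.33 (SE 1.01) for Npm2, -0.80 (SE 1.10) for Btg4, -0.56 (SE 1.17) for Zp1, -0.29 (SE 0.80) for H1foo and 0.24 (SE 1.12) for Zp2. The X-linked Bmp15 stood at -0.55 (SE 1.39). All 8 had an adjusted p of 1.00 by edgeR's quasi-likelihood test. The directions of Gdf9, Zp2 and H1foo turned when single embryos were left out.

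**Figure D4:**
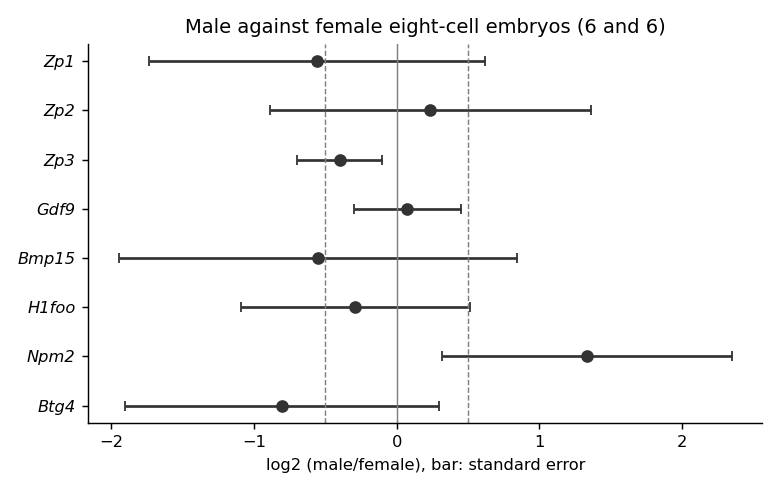
Difference between the sexes (6 male, 6 female) at the eight-cell stage for the 8 oocyte transcripts tested, as log2 (male/female) with its standard error, with dashed lines at -0.5 and 0.5. The values ran from -0.80 for Btg4 to 1.33 for Npm2, and no member was called.

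Whether the transcripts fell and rose together from embryo to embryo was asked over the 28 pairs of the 8 members with a median of at least 10 reads. The median Pearson correlation of log2(CPM + 0.5) was 0.185, the lowest was -0.476 (Gdf9 and Zp2), and 20 of the 28 were positive. After adjustment over the 28 pairs by permutation tests, 1 pair passed, Bmp15 and Btg4. The embryos formed separate clusters on these genes, however: the 4 without Bmp15 had 0, 0, 25 and 10 reads of Btg4, while the other 8 had 41 to 95. Within those 8 embryos r was 0.443 (exact permutation p = 0.277) and rho 0.476 (exact permutation p = 0.243), so the relation rested on the 4 embryos at 0. The choice of the 8 embryos was made after seeing the data. A planned check left out the 2 embryos farthest from the median of the first gene of each pair. With it r was 0.851 for Bmp15 and Btg4. For Gdf9 it rose from 0.166 to 0.764 with Bmp15 and from 0.171 to 0.790 with Btg4. For Zp2 it fell from 0.363 to -0.0962 with Btg4 and from 0.237 to -0.199 with Zp3. These values of the check were not tested. A shared pattern of all members over the embryos was not seen in the 28 pairs, which share libraries and depth.

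**Figure D5:**
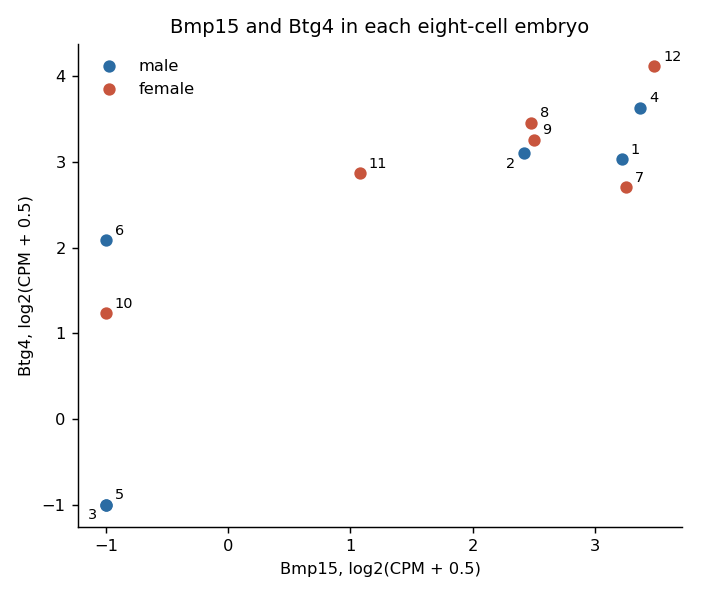
Btg4 (vertical axis) against Bmp15 (horizontal axis) in each numbered eight-cell embryo, both as log2(CPM + 0.5), with males in blue and females in red. The 4 embryos with no Bmp15 read stand at the left, embryos 3 and 5 coinciding with no read of either gene, and the other 8 had r = 0.443.

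For each of these 8 members the genes most alike over the 12 embryos were listed by Spearman's rho among 9087 genes, as a description. With so few embryos and so many genes, high values of rho arise for any gene. Btg4 was most like Ldb1 (rho 0.970), Rreb1 (0.904) and the oocyte gene Omt2a (0.897), and H1foo was most like Rps28 (0.965), Rps15a (0.881) and Calcoco2 (0.874). Gdf9 was most like Nt5c (0.923), Dlgap4 (0.916) and Amigo3 (0.902). Zp3 had the lowest leading value, with Ifnar1 (0.867), Asz1 (0.839) and Mon1a (0.839). Bmp15 was led by Prlr (0.930), Zfp639 (0.897) and Cct3 (0.890), and Npm2 by Ube2v1 (0.923), Zfyve16 (0.881) and Bpgm (0.874). Zp1 was led by Acss2 (0.904), Zfp12 (0.890) and Brdt (0.883), and Zp2 by Esco1 (0.939), Brix1 (0.911) and Bub1 (0.893). Of these 24 genes, Omt2a alone is on a list of oocyte genes below, and no gene was named for more than 1 member.

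Other oocyte genes were counted beside the members. Of a list of 40, 39 were in the tables, 37 had reads in some embryo and 10 had reads in all 12. The 4 highest were Dppa3, a factor that protects maternal methylation (2558 CPM ± 420), Slbp, which binds histone messenger RNA (268 ± 70.3), Oog1 (31.1 ± 23.2) and Nlrp14 (24.1 ± 8.98). Dppa3 is known to be transcribed by the embryo as well. Against ES cells, without the filter, 19 of the 39 were higher in embryos and 6 lower, with a median log2 of 3.16 against -1.06 for all genes, of which 14.3% were higher and 34.2% lower. With the filter, which many of these genes passed through the embryos, 28 were tested, 17 were higher and 5 lower, where 21.5% of all genes were higher and 31.4% lower. Oog1 was higher by 9.80 (SE 1.39) and Nlrp14 by 6.51 (SE 0.61), given as sizes only. The 5 lower with the filter were Nlrp4f, Tcl1, Patl2, Kit and Rnf17, of which Kit is a receptor also found outside the oocyte.

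Most genes of the machinery that removes maternal messenger RNA, CCR4-NOT genes among them, had reads in embryos, where Btg4 itself was at 0 to 95 reads. Of 31 listed, 30 were in the tables, 28 had reads in some embryo and 21 had reads in all 12. Zfp36l1 and Btg3 had no read in any embryo, Pabpn1l had none in 11 and Eif4e1b none in 10. Btg3 was also at 0 to 0.00593 CPM at the other stages, so its zeros are not particular to embryos. Zfp36l1 was at 23.8 to 44.1 CPM there. The 4 highest in embryos were Cnot1, the CCR4-NOT scaffold (581 CPM ± 151), Cnot8, a deadenylase of that complex (350 ± 77.7), Ythdf2, which recognizes methylated RNA (272 ± 104), and Pabpn1, a nuclear poly(A)-binding protein (260 ± 60.1). Against ES cells 27 were tested, 2 were higher in embryos and 11 lower, beside 21.5% of all genes higher and 31.4% lower. The median log2 was -0.86, against -0.44 for all genes tested. Without the filter 2 of 29 were higher and 12 lower, beside 14.3% and 34.2% of all genes. The 2 higher were Cnot8, by 1.79 (SE 0.20, adjusted p = 8.13e-07), and Zfp36l2, which binds AU-rich elements, by 1.73 (SE 0.62, adjusted p = 0.0232). Cnot1 differed by -0.17 (SE 0.20, adjusted p = 0.459). No gene of either list was called between male and female embryos, with 20 and 24 tested.

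The embryo's own early genes were counted for contrast. Of 21 genes of the first zygotic wave, 18 were in the tables, 16 had reads in some embryo and 4 had reads in all 12. The 4 highest were Sp110 (1107 CPM ± 274), the translation factor gene Eif1a (414 ± 49.4), Tdpoz1 (21.1 ± 11.7) and Tmem92 (6.01 ± 4.11). Against ES cells, without the filter, 4 of the 18 were higher in embryos and 2 lower, beside 14.3% and 34.2% of all genes. Of the 14 eight-cell and pluripotency markers, 3 were higher in embryos and 6 lower with the filter, beside 21.5% and 31.4% of all genes, so the share that was higher lay at the background. Nanog, a pluripotency factor, was at 7.81 CPM ± 4.98 in embryos and 523 ± 27.7 in ES cells. Of 12 liver markers, 5 had reads in some embryo.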

How the data were processed

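RNA-seq was analysed for 64 libraries, grouped by the stage and sex in their labels. The authors deposited raw counts: reads assigned to each gene by HTSeq after alignment to mm10 with TopHat2 2.0.4, Bowtie2 2.1.0 and SAMtools 0.1.18 and removal of duplicate reads with Picard. The strand setting of the counting is not given in the sources used here. The 5 summary rows of each table (28.0% to 73.2% of a library) were left out. Embryo libraries followed a single-cell protocol that primes on poly(A) tails, so RNA without a tail is not counted. The TruSeq total RNA libraries of the other stages do not depend on a tail. No 2 libraries of a group agreed within sampling noise (296 pairs, lowest chi-square per degree of freedom 1.91). Labels do not tie embryos to litters, so p-values measure the spread between these samples.

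CPM are reads scaled to a library total of 1e6 reads on genes, with no TMM scaling. Stages (with sex as a covariate) and sexes were set against each other in edgeR 4.0.16 and R 4.3.3 (TMM, filterByExpr, robust quasi-likelihood F test, two-sided, Benjamini-Hochberg over all genes tested). Calls needed an adjusted p under 0.05 and a log2 above 1 for stages, or 0.1 and 0.5 for sex. The SE of a log2 value is its size over the root of F. Permutation tests were two-sided, with 100000 resamples over 12 embryos. Alternatives included DESeq2 1.42.0, its size factors, no filter, a joint fit, a replicate block and leaving out each embryo. Fits were tested on simulated data. Other software was Python 3.11.15 with scipy 1.17.1 and pandas 2.3.3. Named genes were all 10 members, the 4 highest of each list in embryos and the 3 most alike genes of each member. Genes whose count of 5 or fewer is given, the scarcest decay genes and markers named beside the labels were added, chosen after their values were seen. The members and the 6 other gene lists were chosen with earlier results of these data known.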

Additional observations from a re-analysis of the deposited data

Results flagged for a closer look

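In 20 groups of 6 embryos (10 members in each sex), the highest or lowest sample was set against Dixon's 95% critical value, which chance passes in about 1 group in 20, and 3 groups passed it. H1foo in female embryo 9 was at 22.6 CPM, and the nearest of the other females was at 9.97. Mos in female embryo 12 was at 3.74 CPM with 21 reads, and the nearest female was at 1.27. Mos in male embryo 6 was at 0.150 CPM, which is 1 read against none in the other males and lies under the 3-read limit. A single value above 5 zeros passes by construction, whatever its size, so this group says nothing and 2 groups remain. The library of female embryo 12 had reads of all 10 members and a high share of genes of 5 to 20 CPM without a read, and the part of the library in the Mos value was not tested.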

How the results depend on the processing

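With the filter, leaving out 1 embryo or 1 ES line at a time kept the calls of 8 members against ES cells, and leaving out 1 embryo kept those of Gdf9 and Zp3 against the livers, the only members tested there. The call of Bmp15 against ES cells was lost in 5 of these fits (log2 4.68 to 5.02) and kept in the other 11 (log2 4.95 to 6.77). Without the filter, 8 or 9 members were called against ES cells, 9 or 10 against fetal liver and 10 against adult liver, Mos being the one lost for fetal liver. Leaving out 1 embryo turned the uncalled sex differences of Gdf9 (-0.11 without male embryo 5, -0.07 without female embryo 7, up to 0.28 otherwise), Zp2 (-0.49 without male embryo 4, up to 0.72) and H1foo (0.20 without female embryo 9, down to -0.56). Replicate numbers are shared by name only. Deviations of samples with the same number correlated at 0.0056 to 0.0327 for ES cells and eight-cell embryos. Of the 4 numbers, 2 were best matched to their own. A replicate block left the log2 of Bmp15 at 8.60, Zp1 at 6.75, H1foo at 4.80, Zar1 at 6.44 and Btg4 at 8.85, no longer called against ES cells, and genes lower in embryos at 1407 against 3915. That fit rests on 4 numbers shared with ES cells. Genes lower than in ES cells came to 6250 with no filter and 6112 in the joint fit of 4 stages, and genes higher than in adult liver to 5095 with no filter against 3184, where more genes were tested. Between sexes DESeq2 called 21 genes higher in males and 59 lower against 4 and 20, and leaving out 1 embryo gave 9 to 25 lower genes. The cause of the other changes was not tested. The median of Zp3 in embryos was 79.0 CPM, against 56.9, once the 100 highest genes of each stage were left out of the totals. Over the 8 embryos with reads of both genes, chosen after seeing the data, the correlation of Bmp15 and Btg4 was 0.443 and missed the threshold. With TMM factors its rank correlation over 12 embryos had an adjusted permutation p of 0.0722. Depth limits Mos and Zar1, whose means of 0.430 and 1.37 CPM lie near the 3-read limit of single embryos.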

Other observations

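Gdf9 was the only member besides Npm2 with reads in several livers of both ages. In fetal liver it had 9 reads over the 12 males, 5 of which had none, and 26 over the 12 females, all of which had at least 1 and at most 4. The mean level was 0.114 CPM in males and 0.303 in females, both under the 3-read limit of a single fetal liver (0.353 to 0.583 CPM). The difference was seen in the values and not tested. Of reads that fell in genes or in none, 39.9% to 49.0% fell in none in male fetal livers and 34.1% to 38.1% in female ones. Sex and this library difference cannot be told apart. In adult liver the 12 males had 9 reads and the 12 females 7.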
